A study of Mus musculus with 2 samples.

Results

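The transcripts of 10 genes that mark injured kidney tubules, that make fibrinogen or that belong to the inflammatory response of an injured kidney were compared between kidneys without and with *Cnnm2*. *Cnnm2* encodes a membrane protein of the distal nephron whose loss lowers the magnesium level of the blood. The genes were taken by their symbols from a list drawn up with earlier results of these arrays known: *Havcr1*, *Lcn2*, *Fga*, *Fgb*, *Fgg*, *Spp1*, *Clu*, *Sox9*, *Vcam1* and *C3*. They were measured by 14 of the 39416 gene probes of the array, and they are 10 of its 31821 gene names. The RNA came from kidneys of untreated mice at 2 months of age. The knockout carried *Cnnm2* fl/fl;Six2-Cre and the control *Cnnm2* +/+;Six2-Cre, so that both genotypes carried the Cre recombinase and only the knockout carried the floxed alleles. Six2-Cre is active in the progenitors of the nephron, which give rise to the tubules and the podocytes, and not in the lineages of the collecting duct, the vessels or the leukocytes. The number of mice behind each RNA was not given in the sources used here.

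Both RNAs were hybridised together on 2 arrays with the dyes exchanged. On array 1 the knockout was labelled with Cy5 and the control with Cy3, and on array 2 the labels were the other way round. As nothing in the labels separates the RNA of the first hybridisation from that of the second, they were counted as 1 replicate of each genotype. No p-value between the genotypes follows from such a design, and the error given after each mean is the SD of both arrays, which holds the dye effect and the hybridisation but no variation between mice. *Cnnm2* itself had log2 ratios of knockout over control of -2.88 on array 1 and -2.46 on array 2 (mean -2.67 ± 0.30), in the direction of the labels. All 14 markers of the healthy proximal tubule and all 12 of other nephron segments were well above background in both genotypes, as the tissue label states. A gene was tested when the scanner software marked its brightest probe as well above background on both arrays for at least 1 of the genotypes, the same on each, which held for 19707 genes and for 9 of the 10 genes described here. Over the tested genes the log2 ratios of both arrays, each turned to knockout over control, had a Pearson correlation of -0.51 and a Spearman correlation of -0.56, across genes, which are not independent. Most genes therefore had opposite directions on the arrays, and a ratio was read further only where its direction was shared by both arrays.

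Fibrinogen is the soluble precursor of the fibrin clot. It is a dimer of 3 different chains, made by *Fga*, *Fgb* and *Fgg*, which lie side by side on chromosome 3, and the liver is its main source. During inflammation interleukin 6 raises transcription of these genes through STAT3, and an injured kidney can make fibrinogen itself. *Havcr1* encodes kidney injury molecule 1, a receptor for phosphatidylserine with which surviving proximal tubule cells take up dead neighbours. *Lcn2* encodes neutrophil gelatinase-associated lipocalin, which binds bacterial siderophores and appears in the urine after injury of the distal tubule. *Spp1* makes osteopontin, an adhesive phosphoprotein that also restrains crystal growth, and *Clu* makes clusterin, a secreted chaperone. *Sox9* is a transcription factor of regenerating tubule cells, *Vcam1* an adhesion molecule of endothelium and of tubule cells that have not repaired, and *C3* the central protein of the complement cascade.

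Sequences are given here for the probes on which the results turn. The *Fgb* probe is the only one at which a member passed a limit of 2-fold by its brightest probe. The 2 probes of *Havcr1* and the 2 of *Fga* are shown because they gave different ratios for the same gene. Each was deposited as a 60-base oligonucleotide on the sense strand of the transcript, in lower case with no part marked, and only the first 30 bases of the second *Fga* probe are given.
*Fgb* probe A_51_P428483: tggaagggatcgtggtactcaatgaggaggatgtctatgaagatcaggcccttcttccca
*Havcr1* probe A_51_P371745: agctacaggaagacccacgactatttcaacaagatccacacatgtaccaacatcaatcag
*Havcr1* probe A_55_P2148210: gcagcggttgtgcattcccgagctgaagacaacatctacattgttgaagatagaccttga
*Fga* probe A_51_P193813: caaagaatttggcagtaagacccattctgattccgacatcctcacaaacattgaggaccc
*Fga* probe A_55_P2123381, first 30 bases: ggttcccttcagaggagcagattattccct

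In the coordinates of the array files (mm9), the *Fgb* probe lies at chr3:82846334-82846393 on the minus strand. The *Havcr1* probes lie on the plus strand at chr11:46569677-46569736 and chr11:46592056-46592115, and the *Fga* probes on the plus strand at chr3:82835678-82835737 and chr3:82837260-82837319. The array's annotation places each in a transcript of its gene and hence in exonic sequence. Whether the probes lie in coding or untranslated sequence is not given there. The first *Havcr1* probe is tied by the annotation to 1 GenBank entry, AF399829, and to no RefSeq transcript, whereas the second is tied to 3 RefSeq transcripts. Both *Fga* probes are tied to the same 2 RefSeq entries, NM_010196 and NM_001111048. In NM_010196 the second probe lies 1582 bases downstream of the first. The probes are tied to different Ensembl transcripts.

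The 3 fibrinogen promoters are shown because these genes are neighbours whose ratios are set side by side below. They run from 250 bases before to 50 bases after the annotated start, 5′ to 3′ on the strand of the gene, and were taken from RefSeq (GRCm38.p6), whose table held a promoter for 7 of the 10 genes. Capitals mark matches to 3 motifs on either strand. These were CTGGGA and its longer form CTGGGAA, the letters of the interleukin 6 response element of acute-phase genes, GTTAAT, one side of the site of the liver factor HNF1, and TTGCNNAA, a form of the C/EBP site.
*Fga*, chr3:83025903-83026202, plus strand: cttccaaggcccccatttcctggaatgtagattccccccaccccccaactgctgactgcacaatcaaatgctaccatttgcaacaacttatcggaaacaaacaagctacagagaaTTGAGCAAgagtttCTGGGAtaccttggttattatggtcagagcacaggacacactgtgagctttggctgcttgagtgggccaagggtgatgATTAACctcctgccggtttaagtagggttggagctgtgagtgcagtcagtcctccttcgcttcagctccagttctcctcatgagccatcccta
*Fgb*, chr3:83049814-83050113, minus strand: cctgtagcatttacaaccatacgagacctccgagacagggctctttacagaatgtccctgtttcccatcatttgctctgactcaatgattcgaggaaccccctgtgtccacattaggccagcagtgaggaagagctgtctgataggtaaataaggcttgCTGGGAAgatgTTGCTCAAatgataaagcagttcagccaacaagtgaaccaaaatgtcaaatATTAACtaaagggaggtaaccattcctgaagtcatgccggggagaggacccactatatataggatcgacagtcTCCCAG
*Fgg*, chr3:83007474-83007773, plus strand: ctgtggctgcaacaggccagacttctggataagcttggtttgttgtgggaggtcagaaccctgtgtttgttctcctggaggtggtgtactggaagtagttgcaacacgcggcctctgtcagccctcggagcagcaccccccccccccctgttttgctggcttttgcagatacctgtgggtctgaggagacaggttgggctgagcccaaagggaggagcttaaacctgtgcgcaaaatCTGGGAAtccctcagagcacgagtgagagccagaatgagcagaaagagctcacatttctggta

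CTGGGAA occurred on the plus strand of the *Fgb* and *Fgg* promoters, at -91 and -13 bases from the start, and not in that of *Fga*. It contains CTGGGA, so that each of its matches is also a match of the shorter motif, and *Fga* held CTGGGA alone, at -121. *Fgb* had a second CTGGGA on the minus strand at 44. GTTAAT and TTGCNNAA matched in *Fga* (-43 and -135) and in *Fgb* (-29 and -80) and did not match in *Fgg*. Of the 32544 distinct promoters of the same length in the table, 3587 (11.02%) held CTGGGAA, 31.8% CTGGGA, 7.13% GTTAAT and 10.8% TTGCNNAA on either strand. A match is a run of letters and was not tied here to binding of any factor.

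Of the 9 tested genes, 5 had a higher signal in the knockout on both arrays, namely *Havcr1*, *Lcn2*, *Fgb*, *Fgg* and *Spp1*. *Vcam1* and *C3* had a lower signal on both arrays, and *Fga* and *Clu* went in opposite directions. Among all tested genes, 12.1% were higher and 15.6% lower on both arrays, 27.7% in all. In the same 5 genes both knockout signals lay above both control signals, a pattern that 5.88% of all tested genes had, and no gene of the 9 showed the reverse, which 5.41% of all did. A single gene, *Fgb*, was at least 2-fold higher in the mean with 1 direction on both arrays, against 0.315% of all genes, and none was 2-fold lower, against 0.284%, or 0.599% in either direction. At 1.5-fold *Fgg* joined *Fgb*, where 1.0% of all genes were higher and 1.06% lower, and none of the 9 genes was lower by that much. The median log2 ratio of the 9 genes was 0.26, beside -0.01 for all tested genes. These counts and medians describe the genes and are not a test of the group. In whole kidneys more cells of a type and more RNA per cell cannot be told apart.

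**Figure D1:**
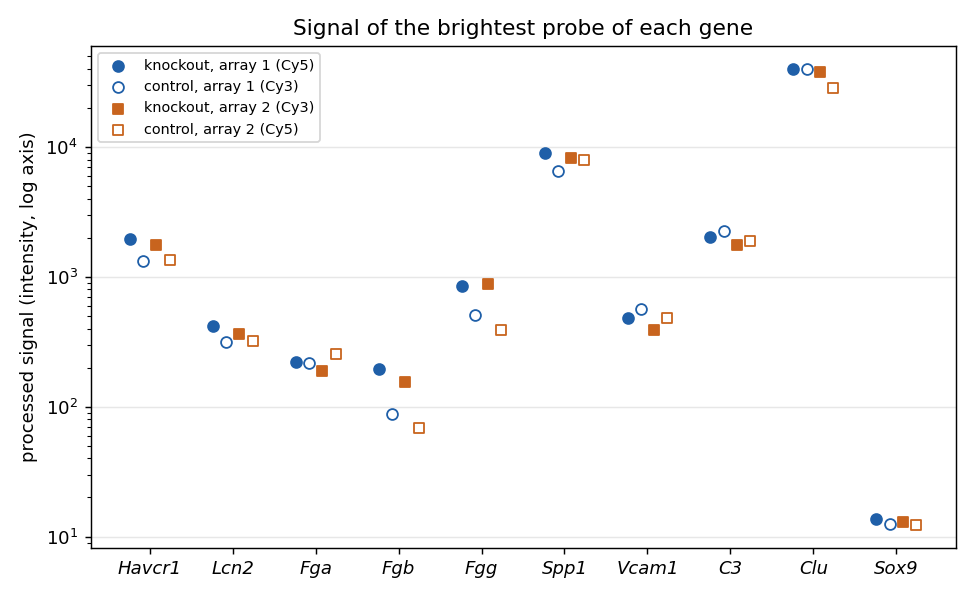
Processed signal (intensity, log axis) of the brightest probe of each of the 10 genes. Filled symbols are the knockout and open symbols the control, circles are array 1 (knockout in Cy5) and squares array 2 (knockout in Cy3), with 1 value per symbol and no error bar. Filled symbols sit above both open ones for *Havcr1*, *Lcn2*, *Fgb*, *Fgg* and *Spp1*. They also do for *Sox9*, which was not tested and whose 4 symbols all lie between 12.3 and 13.7. Signals of different probes are not comparable as transcript levels.

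The fibrinogen genes held the largest ratios of the group by their brightest probes, in 2 of the 3 chains. *Fgb*, which makes the beta chain, had processed signals of 196 in the knockout and 88.4 in the control on array 1, and of 155 and 68.8 on array 2. The knockout was thus the brighter channel with either dye, and its lower signal exceeded the higher control signal. The log2 ratios were 1.15 and 1.17 (mean 1.16 ± 0.02), a fold of 2.23, which placed *Fgb* at rank 37 of the 19707 tested genes by the mean. *Fgb* is among the genes that the study itself picked from these arrays, so that its naming here is not independent of them.

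*Fgg* encodes the gamma chain and was measured by 1 probe at chr3:82818825-82818884 on the plus strand. Its signals were 857 in the knockout and 508 in the control on array 1, and 880 and 390 on array 2. Again both knockout signals lay above both control signals. The log2 ratios were 0.76 and 1.18 (mean 0.97 ± 0.30), a fold of 1.95 at rank 69, just below the limit of 2-fold that *Fgb* passed. *Fgg* was brighter than *Fgb* in every channel, although signals of different probes do not order their transcripts.

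*Fga*, for the alpha chain, had no shared direction at its brighter probe, A_51_P193813. This probe read 221 in the knockout and 219 in the control on array 1, and 190 and 256 on array 2. The genotypes were level on the first array and the control was brighter on the second, with log2 ratios of 0.02 and -0.43 (mean -0.21 ± 0.32). The dimmer probe, A_55_P2123381, read 76.6 and 20.4 on array 1 and 52.8 and 34.1 on array 2. Here the knockout was brighter with either dye, at log2 ratios of 1.91 and 0.63 (mean 1.27 ± 0.90). The 2 probes, tied to the same 2 RefSeq entries, therefore differed by 1.48 in their mean log2 ratio, and the gene was counted by the brighter one.

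These ratios depended on how the signals were corrected and normalized, and most so at dim probes. None of the settings below changed the treatment of the background alone. On array 1 the uncorrected *Fgb* signals were 333 in the knockout and 121 in the control, over local backgrounds of 49.0 and 34.5. On array 2 they were 211 and 167 over 32.0 and 54.0. With normexp background correction and loess normalization the mean log2 ratio of *Fgb* was 0.46. With loess and no background correction it was 0.82, and with subtraction of the local background and median centring it was 1.20. Normexp here also added an offset of 50 to both channels, and it was not run without that offset. *Fgb* was higher in the knockout on both arrays under each of these. It passed 2-fold only with the processed signals and with the local background subtracted and the ratios median centred. *Fgg*, the brighter of the pair, had 0.74, 0.91 and 0.98 in the same order. The dimmer *Fga* probe had 0.22, 0.52 and 1.29.

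**Figure D2:**
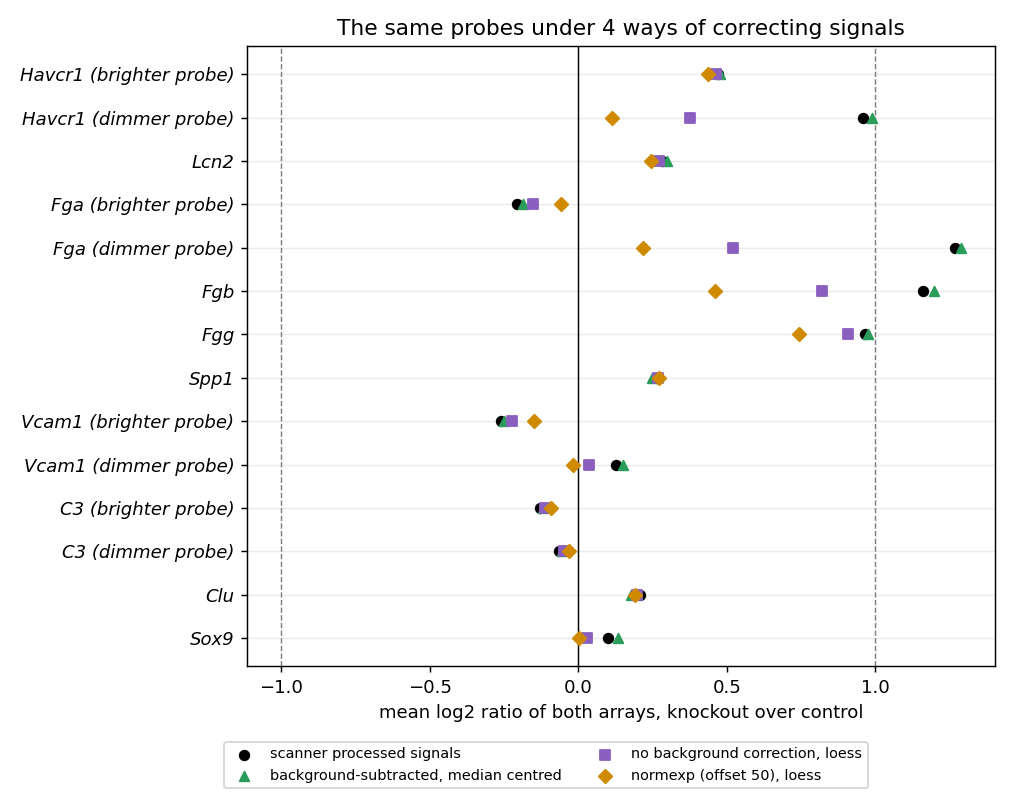
Mean log2 ratio of both arrays (knockout over control, horizontal axis) of each of the 14 probes under 4 ways of correcting the signals, 1 symbol per way. Dashed lines mark 2-fold, and no error is drawn. The symbols spread widely for *Fgb* (0.46 to 1.20) and for the dimmer probes of *Havcr1* (0.11 to 0.99) and *Fga* (0.22 to 1.29), and coincide for bright probes such as *Spp1* and *Clu*.

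The genes on either side of the fibrinogen genes, chosen after their values were seen, gave the following ratios. In the RefSeq order the run is *Rbm46*, *Lrat*, *Fgg*, *Fga*, *Fgb*, *Plrg1* and *Gm10710*. *Lrat*, which esterifies retinol for storage, had log2 ratios of 1.36 and 0.43 (mean 0.89 ± 0.66). *Plrg1*, a component of the spliceosome, had 0.10 and 0.15 (mean 0.12 ± 0.04). *Rbm46* did not pass the limit on signal, and *Gm10710* had no probe under that name.

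Among the tubular markers *Havcr1* was next in size. Its brighter probe, A_51_P371745, read 1960 in the knockout and 1331 in the control on array 1, and 1748 and 1340 on array 2. Both knockout signals exceeded both control signals. The log2 ratios were 0.56 and 0.38 (mean 0.47 ± 0.12), a fold of 1.39 at rank 351. The dimmer probe, which is the one tied to RefSeq transcripts, read 33.3 and 17.3 on array 1 and 34.8 and 17.8 on array 2. Its ratios were nearly equal on both arrays, at 0.95 and 0.97 (mean 0.96 ± 0.02), or 1.94-fold. This probe was close to its surroundings, however, with uncorrected signals on array 1 of 110 and 76.0 over local backgrounds of 44.0 and 33.0, and its mean log2 ratio was 0.11 under normexp and 0.38 without background correction. The brighter probe had 0.44 and 0.46 under the same settings. The direction of *Havcr1* was thus shared by both of its probes, and its size was not.

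*Lcn2* was measured by 1 probe at chr2:32240199-32240258 on the minus strand. The signals were 417 in the knockout and 317 in the control on array 1, and 361 and 321 on array 2. Knockout signals lay above those of the control without overlap, at log2 ratios of 0.40 and 0.17 (mean 0.28 ± 0.16) and a fold of 1.22. *Spp1* (chr5:104868502-104868561, plus strand) was far brighter, with 9060 and 6528 on array 1 and 8219 and 7919 on array 2. Both knockout signals of *Spp1* lay above both control signals, but the ratio on array 2 was close to 0, at 0.05, beside 0.47 on array 1 (mean 0.26 ± 0.30). The means of *Lcn2* and *Spp1* were smaller than the median SD of both arrays over all tested genes, which was 0.30, and so was the mean of *Clu*. That SD holds the dye effect, and the means themselves had an SD of 0.23 over the tested genes.

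*Clu*, at chr14:66600325-66600382 on the plus strand, had the highest signals of the group. It read 39833 in the knockout and 40016 in the control on array 1, and 38096 and 28416 on array 2. The genotypes overlapped, with log2 ratios of -0.01 and 0.42 (mean 0.21 ± 0.30). *Sox9* (chr11:112648809-112648868, plus strand) was the one gene that was not tested. Its signals were 13.7 and 12.6 on array 1 and 13 and 12.3 on array 2, the dimmest of the group. The probe was printed at 10 spots per array, 2 of which were left out on array 2. On array 1, 10 of 10 knockout spots and 4 of 10 control spots were well above background, and on array 2, 1 of 8 and 7 of 8. Detection of *Sox9* thus went with Cy5 on both arrays and not with a genotype. Log2 ratios of its spots ran from -0.64 to 0.55 on array 1 and from -0.30 to 0.58 on array 2, around means of 0.12 and 0.08. *Sox9* was accordingly near the limit of what these arrays detected, and no difference was detectable at that signal.

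**Figure D3:**
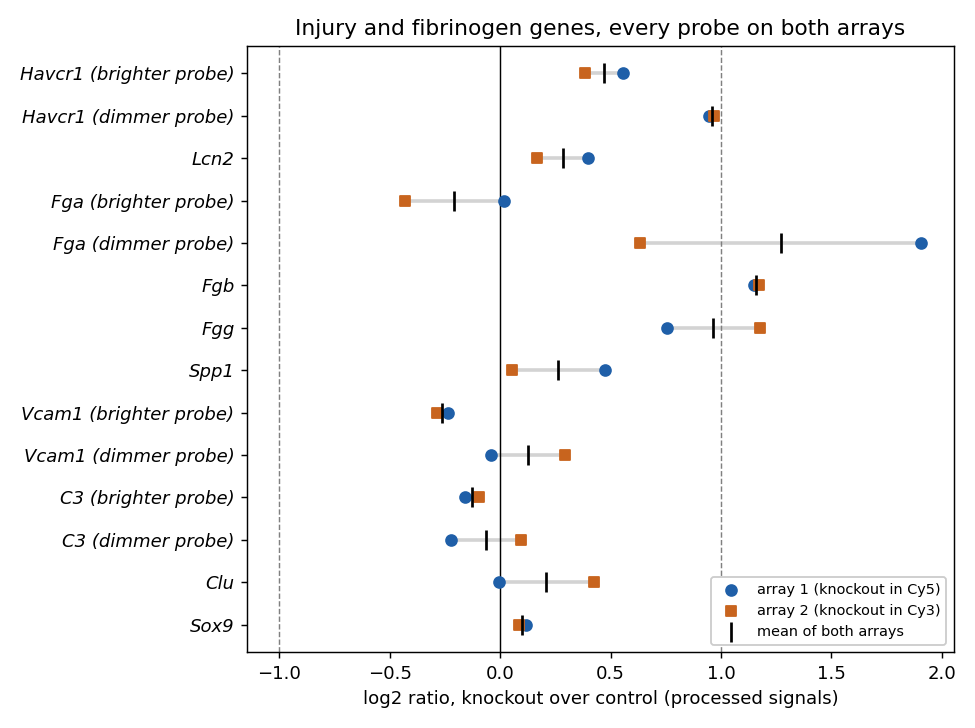
Log2 ratio of knockout over control from processed signals (horizontal axis) of every probe of the 10 genes. Circles are array 1 (knockout in Cy5), squares array 2 (knockout in Cy3), the grey line joins them, the vertical tick is their mean, and dashed lines mark 2-fold. Both symbols lie right of 0 for every probe of *Havcr1*, *Lcn2*, *Fgb*, *Fgg*, *Spp1* and *Sox9* and for the dimmer probe of *Fga*. The probes of *Fga* lie apart by 1.48 in their means.

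Neither *Vcam1* nor *C3* was higher in the knockout at its brighter probe. *Vcam1* had 484 in the knockout and 570 in the control on array 1, and 393 and 479 on array 2, at its brighter probe (chr3:115813216-115813275, minus strand). Within each array the knockout was the dimmer channel, though the signals overlapped across arrays. The log2 ratios were -0.24 and -0.29 (mean -0.26 ± 0.03), the lowest mean of the group. The dimmer *Vcam1* probe, at chr3:115828953-115829012, read 23.3 and 23.9 on array 1 and 27.9 and 22.7 on array 2, with ratios of -0.04 and 0.30 that shared no direction.

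*C3* was printed at 10 spots per array. Its signals were 2023 in the knockout and 2257 in the control on array 1, and 1774 and 1897 on array 2, at chr17:57343416-57343475 on the minus strand. All 10 spots on each array were lower in the knockout, with means of -0.16 (SD of spots 0.02) and -0.10 (SD of spots 0.03). The mean of both arrays was -0.13 ± 0.04. Spots of an array share the same labelled RNA and are not replicates. A second *C3* probe, at chr17:57343678-57343737, had ratios of -0.22 and 0.09 and thus no shared direction. For comparison, the median SD of spots over the 399 probes printed 10 times was 0.0504 on array 1 and 0.0473 on array 2, whereas the spots of *Sox9* had SDs of 0.36 and 0.30.

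**Figure D4:**
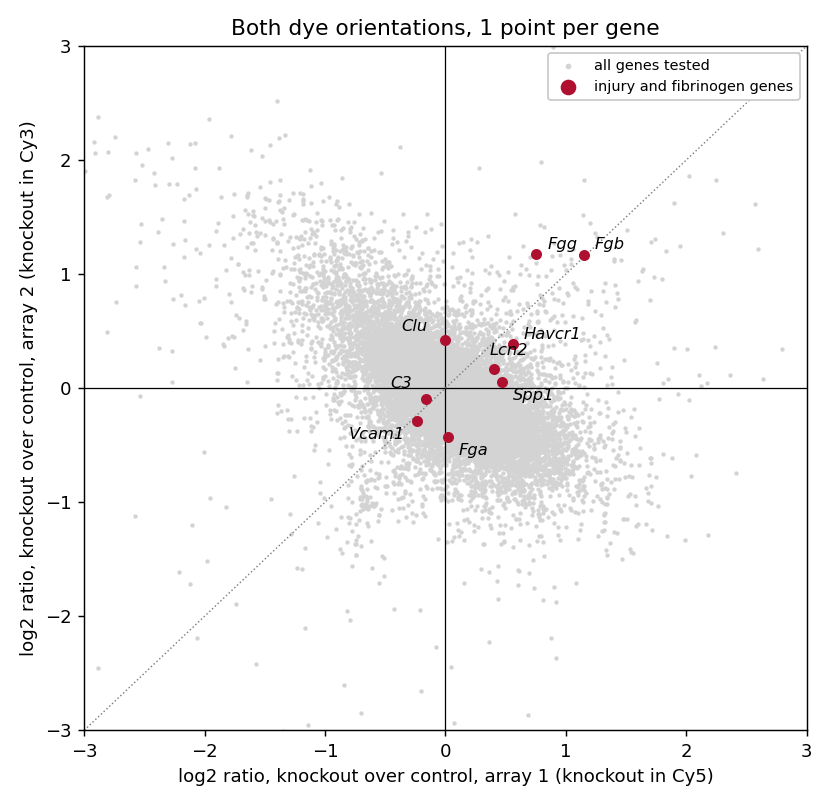
Log2 ratio of knockout over control on array 1 (horizontal axis) against that on array 2 (vertical axis), 1 point per tested gene, grey for all 19707 genes and red for the 9 tested injury and fibrinogen genes. The dotted line marks equal ratios, and 25 genes lie outside the axes. The grey cloud slopes downward (Pearson correlation -0.51), and *Fgb*, *Fgg*, *Havcr1*, *Lcn2* and *Spp1* lie in the upper right quadrant.

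Other genes of the injury and repair programme had mixed directions. Of 30 such genes, all tested, 7 (23.3%) were higher and 4 (13.3%) lower on both arrays, and 19 went in opposite directions. Over all tested genes the shares were 12.1% higher and 15.6% lower. None of the 30 passed 2-fold, and their median log2 ratio was 0.00. No test of the group was run. *Krt20*, a keratin of urothelium that injured proximal tubules also make, had the highest mean of those with a shared direction. It read 81.4 in the knockout and 43.6 in the control on array 1, and 65.7 and 38.3 on array 2, at log2 ratios of 0.90 and 0.78 (mean 0.84 ± 0.09). *S100a6*, a calcium-binding protein named here after its value was seen, was the other gene past 1.5-fold among the higher ones, with a mean of 0.68 ± 0.46. *Prom1*, a membrane glycoprotein of progenitor and tubule cells, was lowest, at -0.68 and -0.76 (mean -0.72 ± 0.05), and was the 1 gene lower by more than 1.5-fold. Here and in the lists that follow, highest and lowest refer to the genes with a shared direction. The shares over all tested genes apply to each list, with 1.0% higher and 1.06% lower at 1.5-fold.

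Of 25 genes listed for the acute phase and coagulation, 10 were not well above background in these kidneys, among them *Crp*, *Hpx*, *Saa3* and *Orm1*. Of the 15 tested, 4 were higher and 1 lower on both arrays, 10 went in opposite directions, and the median was 0.06. *Apcs*, serum amyloid P, was highest with 0.99 and 0.58 (mean 0.78 ± 0.29). *Cp*, which makes the copper carrier ceruloplasmin, was lowest with -0.50 and -0.48 (mean -0.49 ± 0.01). The interleukin 6 and STAT3 pathway had 15 of 18 genes tested, with *Il6*, *Osm* and *Lif* not well above background. None of the 15 was higher on both arrays, 4 were lower and 11 went in opposite directions (median -0.05). *Osmr*, the receptor of oncostatin M, was the lowest of these at -0.01 and -0.38 (mean -0.20 ± 0.26). None of them passed 1.5-fold in either direction.

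For the complement system, in which *C3* acts, 19 of 25 genes were tested, with 4 higher, 4 lower and 11 in opposite directions (median -0.01). *Cd55*, which dismantles the C3 convertase, was highest at 0.28 and 0.13, and *Cfd*, the protease that starts the alternative pathway, lowest at -0.23 and -0.32. Of 25 receptors and partners of the 10 proteins, 18 were tested, with 3 higher, 2 lower and 13 in opposite directions (median -0.05). *Timd2*, a relative of *Havcr1*, was highest (0.23 and 0.38), and *Itgax*, a chain of an integrin that binds C3 fragments and fibrinogen, lowest (-0.40 and -0.05). The *Lcn2* receptors *Lrp2* (0.28 and -0.45) and *Slc22a17* (-0.26 and 0.28) shared no direction, nor did *Itga4* (-0.30 and 0.08), whose integrin binds Vcam1, or *C3ar1* (0.14 and -0.65), the receptor of a C3 fragment.

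**Figure D5:**
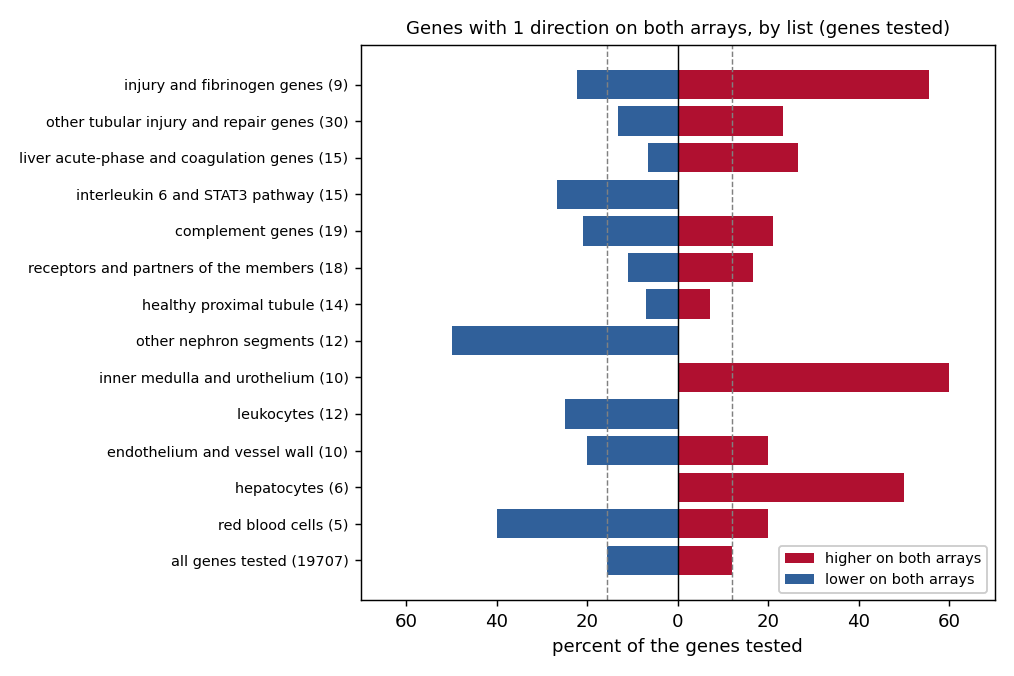
Percent of the tested genes of each list (numbers in brackets) with a higher signal in the knockout on both arrays (red, right) or a lower one (blue, left). Dashed lines mark the shares over all tested genes, 12.1% and 15.6%. The injury and fibrinogen genes (55.6% higher), the markers of inner medulla and urothelium (6 of 10 genes) and those of hepatocytes (3 of 6) have the longest red bars.

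Markers of cells that could carry these transcripts were read beside them. Of 8 hepatocyte markers 6 were tested and 3 were higher on both arrays, with none lower (median 0.06), whereas *Apoa1* and *Ahsg* were not well above background. *Ttr*, the thyroxine carrier transthyretin, was highest at 1.34 and 0.47 (mean 0.90 ± 0.62), while *Alb*, albumin, had 0.18 and -0.31. The other higher ones were *Apoa2* (0.04 and 0.07) and *Cyp2e1* (0.47 and 0.00). On array 1 the 6 tested genes of this list summed to 200540 for the knockout against 151635 for the control. On array 2 they summed to 152965 against 145428. Most of each sum was *Cyp2e1*, with 140596 and 101344 on array 1 and 102419 and 102365 on array 2. *Serpina1a*, the next brightest, had -0.18 and 0.15 and thus no shared direction. Which cells made these transcripts, and the part of hepatocytes in the fibrinogen ratios, were not tested. Of 10 markers of the inner medulla and urothelium, 6 were higher on both arrays and none lower, 4 of them past 1.5-fold and 1 past 2-fold. In opposite directions went 4, among them *Aqp4* (0.33 and -0.27), *Krt14* (0.58 and -0.17) and *Trp63* (0.34 and -0.28). The uroplakins, which coat the urothelium, had mean log2 ratios of 0.46 (*Upk1a*), 0.87 (*Upk1b*), 0.36 (*Upk2*) and 0.64 (*Upk3a*). The median of this list was 0.41, and its summed signal was 12880 and 11224 on array 1 and 10282 and 10275 on array 2 in knockout and control. Most of each sum was *Trp63* and *Slc14a2*, which shared no direction at their brightest probes (*Slc14a2* -0.20 and 0.02). The sums therefore say little about the uroplakins. No urothelial marker was at background in either genotype, and their part in the ratios of *Krt20*, *Lcn2* and the other genes was not tested.

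The markers of other cells ran otherwise. Of 12 tested leukocyte markers of 13 listed none was higher and 3 were lower on both arrays (median -0.01), and the summed signal was 16976 and 16840 on array 1 and 13849 and 13447 on array 2. Of 10 tested markers of endothelium and vessel wall, which include cells that express *Vcam1*, 2 were higher and 2 lower (median -0.14). *Cdh5*, the cadherin of endothelial junctions, was lowest at -0.58 and -0.11, *Vwf*, which makes von Willebrand factor, highest at 0.31 and 0.00 (mean 0.16 ± 0.21), and the selectins *Sele* and *Selp* were not well above background. The endothelium and vessel wall signals summed to 10618 for the knockout against 13310 for the control on array 1. On array 2 they summed to 10421 against 10312. The part of these cells in the *Vcam1* ratio was not tested. Of 5 red blood cell genes, 1 was higher and 2 lower (median -0.21), with the globin gene *Hbb-b2* at -0.14 and -0.30, and sums of 128991 and 124807 on array 1 and 92615 and 118034 on array 2.

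In the nephron itself, the proximal tubule that carries *Havcr1* after injury had 1 marker higher, 1 lower and 12 in opposite directions among 14 (median -0.07). The higher one was the organic anion transporter *Slc22a6* (0.34 and 0.07) and the lower one the dicarboxylate transporter *Slc13a3* (-0.07 and -0.09). Of 12 markers of other segments and of podocytes none was higher and 6 were lower on both arrays (median -0.15). The lowest was *Nphs1*, nephrin of the podocyte slit diaphragm, at -0.11 and -0.53 (mean -0.32 ± 0.30). None of the markers of these nephron lists passed 1.5-fold in either direction.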

How the data were processed

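The arrays were 2-colour Agilent mouse 4x44K V2 gene expression arrays, 1 with each dye orientation, hybridised with total RNA and scanned together on 1 slide. Agilent Feature Extraction was version 10.7.3.1 per the file headers and 10.5.1.1 in the submitters' processing notes. The deposited scanner files hold intensities per spot, in which the authors' software had subtracted background and normalized the dyes (processed signals). The deposited value table holds log10 ratios of knockout over control, to within 0.00492 and 0.00483 of the scanner's, with medians of 0, used as an alternative. Coordinates are mm9, as deposited.

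Here log2(processed Cy5 / Cy3) was turned to knockout over control after control spots and outlier-marked spots (141 and 175 of 43020) were left out, spots of a probe were averaged, and the brightest probe stood for a gene. Of the gene spots, 62.6% to 68.0% were well above background in the channels and 0 were saturated. A gene was called when its mean changed at least 2-fold with 1 direction on both arrays. With 2 arrays, their number limits the precision.

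Members and gene lists were chosen with earlier results of these data known. Named are every member probe, the genes of each of 12 lists that passed the rule of size or else the highest and lowest mean with a shared direction, defining markers, and *Cnnm2*. Some genes that this rule names are not reported here. The receptors of members that shared no direction were named after their values were seen. Alternatives comprised normexp (offset 50) with loess, median centring, no background correction, the scanner's log ratios, the signal limit, probe choice, single arrays, limma 3.58.1 in R 4.3.3, and the methods' t-test (SciPy 1.17.1) at 0.1. Scripts were tested on simulated data.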

Additional observations from a re-analysis of the deposited data

How the results depend on the processing

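Each ratio paired knockout and control within an array, and no block of biological replicates could be added, as each genotype is 1 replicate and the labels carry no replicate numbers. Over the 10 settings that used both arrays, *Havcr1* (0.44 to 0.71), *Lcn2* (0.24 to 0.30), *Fgb* (0.46 to 1.20) and *Fgg* (0.74 to 0.98) were higher on both arrays in 10 of 10, and *Spp1* (0.25 to 0.27) in 9. *Vcam1* (-0.26 to -0.07) and *C3* (-0.13 to -0.09) were lower on both in 9 of 10. *Fga* ranged from -0.21 to 0.53 and *Clu* from 0.18 to 0.21, with a shared direction in 1 and 2 settings. The 10 settings were not independent. The scanner's log ratios, the value table, both signal limits and the kept outlier spots reused nearly the same ratios of the tested genes. The median over probes did so for genes with 1 probe. The number of members at least 2-fold higher was 1 (*Fgb*), and 0 under normexp with loess and under loess without background correction, 2 on array 2 alone (*Fgb*, *Fgg*), 2 with the dimmest probe of each gene (*Fga*, *Fgb*; added after seeing the data) and 2 at 1.5-fold. Members higher on both arrays numbered 3 without the 3 fibrinogen genes (also added later), and members lower on both numbered 1 under median centring, 1 with the median over probes and 0 with the dimmest probe. For all genes the 62 higher and 56 lower became 7 and 8 under normexp, 12 and 12 without background correction, 232 and 179 with no limit on signal, 37 and 27 when both genotypes had to be well above background, 1097 and 633 on array 1 alone, 576 and 882 on array 2 alone, 197 and 209 at 1.5-fold, and 28 and 20 when each array had to pass 2-fold. The methods' t-test, paired within arrays, at 0.1 left 22 and 14, *Fgb* among them, and after Benjamini-Hochberg 0 and 0, with 0 members. At an unadjusted p of 0.05 it passed 486 genes of any size, of which 12 were 2-fold higher and 5 lower. With limma 0 and 0 genes and 0 members passed an adjusted p of 0.05 (smallest 0.99999), against 56 and 50 at an unadjusted 0.05, *Fgb* being the 1 member. Both tests treat the arrays as replicates, which they were not taken to be here. Of the values of single genes, 105 differed from the main value by less than that gene's SD of both arrays, and 15 moved further. The 105 include settings that reused the main ratios. No gene past the limit of 2-fold changed sign, but 3 below it did: *Fga* was 0.53 with the median over probes, 1.27 with the dimmest probe and 0.02 on array 1 alone, *Vcam1* was 0.13 with the dimmest probe, and *Clu* was -0.01 on array 1 alone. Dim probes moved most between the ways of correcting and normalizing signals, and the cause was not tested. Depth is bounded by signal over background: *Sox9*, the dimmer *Havcr1*, *Fga* and *Vcam1* probes and, less so, *Fgb* were close to it.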
